A study of Danio rerio with 13 samples.

Results

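The change of gene expression in arch neural crest cells (NCCs) between 20 and 28 hours post-fertilization (hpf) was examined in wild-type zebrafish embryos. All genes with an RPKM (read counts divided by the length of the transcript and by the depth of the library) of at least 3 in the 28 hpf or the 20 hpf library were included, whether or not they were enriched in the arches. This rule took 8583 of 27911 genes in the deposited table (30.8%). Of these, 7200 (83.9%) reached an RPKM of 3 in both libraries, 858 (10%) at 28 hpf alone and 525 (6.12%) at 20 hpf alone.

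The cells were purified by fluorescence-activated cell sorting from pools of dissociated embryos, as cells that carried both DsRed driven by *sox10* and EGFP driven by *fli1a*. Both the 28 hpf and the 20 hpf embryos were untreated wild types with both transgenes, and each stage was represented by 1 library. For comparison, 4 control libraries of double-positive cells at 36 hpf were used, from wild types, from wild-type embryos of the *jag1b* mutant line, and from heat-shocked embryos with *hsp70I*:Gal4 alone or *UAS*:Edn1 alone. Cells at 36 hpf with only *fli1a*:EGFP or only *sox10*:DsRed from wild types served as single-positive populations. Embryos for 36 hpf were held at 22 °C from 27 hpf, which the 28 and 20 hpf embryos were not stated to be, so stage and rearing differ together there.

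The gate limits what a double-positive cell can be taken for. *sox10*:DsRed marks NCCs of every fate and the ear, and *fli1a*:EGFP marks arch NCCs, vessels and macrophages, so pigment progenitors, endothelium and leukocytes border the sorted population on either side. Cranial NCCs leave the dorsal neural tube, migrate into the pharyngeal arches and there divide into dorsal, intermediate and ventral domains under Edn1, BMP and Jagged-Notch signals. While they settle, they give up migratory crest programs, and part of them then condenses into the cartilage of the jaw and gill supports. The 20 hpf stage lies shortly after arrival in the arches and the 28 hpf stage at the onset of condensation.

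A ratio of RPKM at 28 hpf to RPKM at 20 hpf is called a fold change here, and a gene was called as rising or falling where it was at least 2-fold. Depth recovered from the steps between RPKM values was 1.01 at 28 hpf and 1 at 20 hpf relative to the wild-type 36 hpf library, and an RPKM of 3 stood for 262 reads at 28 hpf and 261 reads at 20 hpf of the median gene with recovered reads. With 1 library a stage, differences could not be set against replicates, and no test was made. As the data come from bulk libraries, fewer cells of a type and less RNA per cell cannot be told apart.

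Between the stages, 594 genes rose (6.92% of 8583) and 496 genes fell (5.78%), 1090 in all (12.7%). Over the 8583 genes, the log2 fold change had a median of 0.05. Genes that passed the RPKM minimum at 1 stage alone were bound to lean to that stage. The list counts below include such genes. Each list count is to be read beside the 6.92% rising and 5.78% falling over all genes. Among the 7200 genes at 3 or more in both libraries, 233 rose and 236 fell, and rescaling the libraries by median ratios gave 483 rising and 573 falling genes. Over all 8583 genes, 199 were up and 140 down by 4-fold or more, and 101 up and 42 down by 8-fold or more. Among genes at 3 or more in both libraries, these counts were 40 up and 35 down at 4-fold, and 12 up and 3 down at 8-fold. The share of rising genes was 8.14% in the lowest class of expression (3 to 10) and 4.98% among genes at 100 or more.

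**Figure D1:**
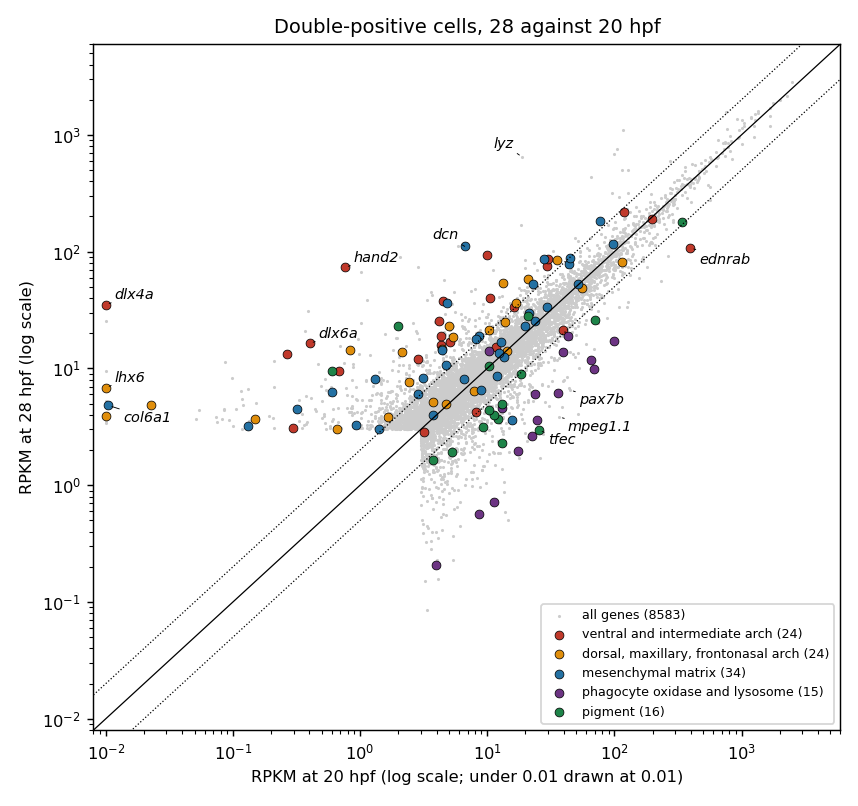
RPKM at 28 hpf (vertical, log scale) against RPKM at 20 hpf (horizontal, log scale) for the 8583 genes, with values under 0.01 drawn at 0.01; dotted lines mark 2-fold. Arch patterning and matrix genes lie mostly above the diagonal, whereas phagocyte and pigment genes lie mostly below it.

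The share of changed genes by itself lay within the range of the 4 control pairs compared at a single stage. The lowest share came from the only pair without the wild-type 36 hpf library. The *jag1b* wild-type library was not paired with the heat-shocked ones. By the same rule, 11% of genes were 2-fold or more apart between the wild-type 36 hpf and *jag1b* wild-type libraries, 12.6% between the wild-type and *hsp70I*:Gal4 libraries, 14.1% between the wild-type and *UAS*:Edn1 libraries, and 2.37% between the 2 heat-shocked libraries. At 4-fold or more, 3.95% of genes were apart between 28 and 20 hpf, against 0.445 to 3.07% in the control pairs. A stricter call was therefore set beside the first, requiring a fold change larger than the ratio of the highest to the lowest of the 4 controls. It was met by 503 rising (5.86%) and 301 falling genes (3.51%).

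**Figure D2:**
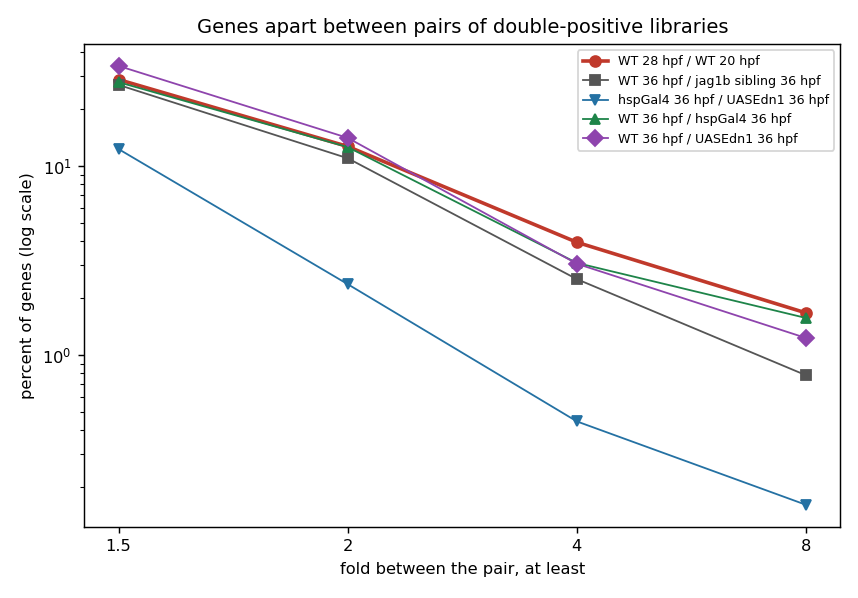
Percent of genes (log scale) that were at least 1.5-, 2-, 4- or 8-fold apart between 28 and 20 hpf (red) and between 4 pairs of control libraries of 36 hpf. The line for 28 and 20 hpf runs among those of the 3 control pairs that hold the wild-type 36 hpf library at 1.5- and 2-fold and above them at 4-fold.

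The rising and falling genes differed in their expression at 36 hpf, a measure taken from libraries other than the 28 and 20 hpf ones. Of the rising genes, 154 (25.9%) were arch-enriched, that is, at 3 or more in wild-type 36 hpf double-positive cells and 1.5-fold or more above both single-positive populations, against 603 of all 8583 genes (7.03%). Of the falling genes, 3 (0.605%) were so enriched: *npb*, *rras2* and a clone-named gene, which were looked up after their values were seen. By contrast, 51.4% of the falling genes were at least 2-fold higher in *fli1a*:EGFP and 45.6% at least 2-fold higher in *sox10*:DsRed single-positive cells than in double-positive cells, against 6.73% and 8.78% of all genes. For the rising genes the shares were 13% and 10.6%. Of the falling genes, 52.6% were under an RPKM of 1 in the wild-type 36 hpf library, against 8.08% of the rising genes and 5.57% of all genes. The median RPKM in that library was 0.866 for falling and 7.84 for rising genes. Genes under 3 there could not count as arch-enriched, and low values there raise the single-positive ratios. These shares therefore do not separate the level at 36 hpf from the place of expression.

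The genes that pattern the ventral and intermediate arch mostly rose. Of 31 such genes in the table, 24 passed the RPKM minimum, 17 rose and 1 fell, with a median log2 fold change of 1.90. Over all genes, 6.92% rose and 5.78% fell. Some of the rising genes, among them *dlx6a*, *dlx4a* and *hand2*, passed at 28 hpf alone and so had to be higher there. All 17 rises exceeded the range of the controls, between pairs of which 0 to 4 of the 24 genes were 2-fold apart.

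The Dlx homeobox genes, which set the dorsoventral identity of arch cells, differed in how far they changed. *dlx2a*, the pan-arch member, was at an RPKM of 217 at 28 hpf and 119 at 20 hpf, within 2-fold. *dlx5a* was at 93.1 at 28 hpf and 9.90 at 20 hpf, a 9.41-fold rise, and at 75.4 to 106 in the 4 controls of 36 hpf. *dlx1a* rose 8.40-fold, to 37.6 at 28 hpf against 4.48 at 20 hpf. Thus *dlx5a* had reached the range of the 36 hpf controls by 28 hpf, and *dlx1a*, whose controls ranged from 41.6 to 62.9, lay just under it.

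Of the other Dlx genes, *dlx6a* and *dlx4a* were at or near 0 at 20 hpf, and *dlx4b* and *dlx3b* were not. *dlx6a* was at 16.4 (1516 reads) at 28 hpf and 0.402 (37 reads) at 20 hpf, a 40.8-fold rise with an exact 95% counting interval of 29.4 to 58.1. *dlx4a* had 2138 reads (RPKM 35.2) at 28 hpf and 0 reads at 20 hpf, at least 709-fold higher when 20 hpf is set to 3 reads. Its duplicate *dlx4b*, at 40.2 at 28 hpf and 10.6 at 20 hpf, and *dlx3b*, at 76.0 at 28 hpf and 29.4 at 20 hpf, rose 3.81-fold for *dlx4b* and 2.59-fold for *dlx3b*. These intervals and limits hold for counting error alone, because PCR copies of 1 molecule are counted as separate reads. The 2 *dlx4* duplicates were thus close in RPKM at 28 hpf, while at 20 hpf only *dlx4b* had reads.

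Other transcription factor genes rose as well, as did the ligand gene *bmp4*. *hand2*, a bHLH factor of the ventralmost arch, was at 73.5 at 28 hpf and 0.760 at 20 hpf, 96.8-fold higher, and the controls of 36 hpf lay at 73.0 to 116. The forkhead gene *foxf2a* was at 13.3 at 28 hpf and 0.264 at 20 hpf (50.4-fold, interval 35.0 to 75.6) and its relative *foxf1* at 15.9 at 28 hpf and 4.35 at 20 hpf (3.65-fold). *gata3*, a zinc-finger factor, was at 9.45 at 28 hpf and 0.682 at 20 hpf (13.9-fold). The homeobox genes *emx2* (25.4 at 28 hpf, 4.2 at 20 hpf, 6.06-fold), *msxc* (18.8 at 28 hpf, 4.37 at 20 hpf, 4.31-fold) and *msxe* (12.1 at 28 hpf, 2.87 at 20 hpf, 4.23-fold) rose. *bmp4*, the ligand, was at 3.11 at 28 hpf and 0.298 at 20 hpf, or 473 reads at 28 hpf and 45 at 20 hpf, a 10.5-fold rise with an interval of 7.69 to 14.5. *bmp4* was at 17.0 in *fli1a*:EGFP cells and 5.56 in *sox10*:DsRed cells of the single-positive sorts at 36 hpf.

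Among the endothelin receptors the directions were opposite. *ednraa*, which mediates Edn1 signaling in the arches, was at 86.7 at 28 hpf and 30.2 at 20 hpf, a 2.87-fold rise. *ednrab* was at 108 at 28 hpf and 396 at 20 hpf, a 3.66-fold fall, and at 7.34 to 44.5 in the controls. As the 4 controls of *ednrab* differed by 6.05-fold, its fall did not exceed their range, and it was at 54.5 in *sox10*:DsRed single-positive cells at 36 hpf. Not every ventral gene passed 2-fold: *msxb* was at 21.4 at 28 hpf and 39.8 at 20 hpf, *mef2ca*, a MADS-box factor downstream of Edn1, at 4.22 at 28 hpf and 8.23 at 20 hpf, and the BMP antagonist *grem2b* at 190 at 28 hpf and 196 at 20 hpf.

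Genes of the dorsal, maxillary and frontonasal arch mostly rose too, and none that passed the RPKM minimum fell. Of 29 such genes, 24 passed, 17 rose and 0 fell, with a median log2 fold change of 1.56. Over all genes, 6.92% rose and 5.78% fell. Of the rises, 16 exceeded the control range, and 0 to 4 genes were apart between control pairs. Some rising genes, among them *lhx6*, *lhx8a* and *pou3f3b*, passed at 28 hpf alone and so had to be higher there. The LIM-homeobox genes *lhx6* and *lhx8a*, markers of oral and maxillary mesenchyme, had 1140 and 426 reads at 28 hpf (RPKM 6.85 and 3.92) and 0 reads each at 20 hpf, at least 378-fold and at least 141-fold higher. *lhx6* was at 15.5 to 29.9 in the controls, 2-fold or more above 28 hpf in each of them. The zinc-finger gene *osr1* had 426 reads at 28 hpf and 2 at 20 hpf, a ratio of 212 with an interval of 58.3 to 1755, and *osr2* was at 3.04 at 28 hpf and 0.655 at 20 hpf (4.64-fold).

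Upper-face regulators rose between the stages. *pou3f3b*, a POU-domain factor of the dorsal arch, was at 14.5 at 28 hpf and 0.834 at 20 hpf, 17.4-fold higher, and at 32.0 to 42.6 in the controls. *jag1b*, the Notch ligand of the dorsal arch, was at 14.6 at 28 hpf and 4.42 at 20 hpf (3.31-fold) and at 18.9 to 27.8 in the controls. Of the paired-related homeobox genes, *prrx1b* was at 54.2 at 28 hpf and 13.4 at 20 hpf (4.05-fold) and *prrx1a* at 84.5 at 28 hpf and 35.6 at 20 hpf (2.37-fold). The 3 stages therefore formed a rising order for *pou3f3b* and *jag1b*, with no overlap between the 28 hpf value and those of the 4 controls.

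The orphan nuclear receptors of the Nr2f family were uneven. *nr2f1a* was at 18.7 at 28 hpf and 5.40 at 20 hpf (3.46-fold) and *nr2f1b* at 58.1 at 28 hpf and 21.0 at 20 hpf (2.77-fold). *nr2f2* was at 24.8 at 28 hpf and 13.9 at 20 hpf and *nr2f5* at 81.9 at 28 hpf and 114 at 20 hpf, neither past 2-fold. Among the sine oculis and Eya factors, which act as a complex, *six2a* (13.8 at 28 hpf, 2.13 at 20 hpf, 6.48-fold), *eya2* (23.1 at 28 hpf, 5.04 at 20 hpf, 4.57-fold), *six4a* (7.59 at 28 hpf, 2.42 at 20 hpf, 3.14-fold), *six1a* (36.2 at 28 hpf, 16.7 at 20 hpf, 2.16-fold) and *eya1* (21.5 at 28 hpf, 10.4 at 20 hpf, 2.06-fold) rose. The frontonasal homeobox genes *alx4a* (14.2 at both stages) and *alx1* (4.93 at 28 hpf, 4.71 at 20 hpf) were nearly level. The forkhead gene *foxl1* was at 3.72 at 28 hpf and 0.149 at 20 hpf, a 25-fold rise with an interval of 14.7 to 46.2.

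**Figure D3:**
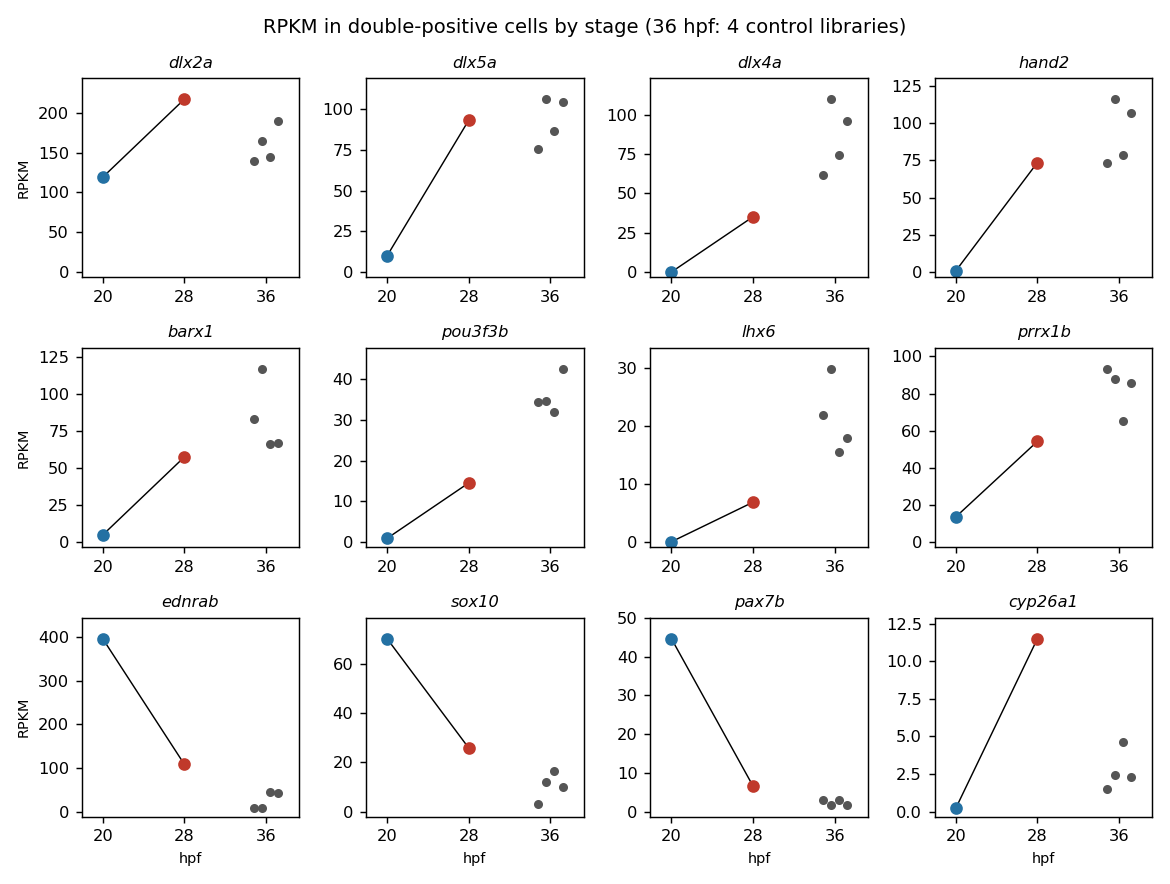
RPKM in double-positive cells at 20, 28 and 36 hpf for 12 genes, with the 4 control libraries at 36 hpf as grey points; each vertical axis starts near 0 and has its own scale. *dlx5a* and *hand2* at 28 hpf lay within the range of the 36 hpf controls, *pou3f3b* and *lhx6* below it, and *cyp26a1*, *ednrab*, *sox10* and *pax7b* above it.

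Hox genes, which give NCCs of the second and more posterior arches their segmental identity, were called as rising more often than as falling. The RPKM minimum set many of these directions. Of 50 Hox genes 12 passed, 7 rose and 2 fell (median log2 fold change 1.29, with 3 to 5 apart between control pairs). Over all genes, 6.92% rose and 5.78% fell. The rising *hoxd3a*, *hoxb1b*, *hoxd4a* and *hoxb4a* passed at 28 hpf alone, and both falling genes at 20 hpf alone. Among those that passed at both stages, *hoxa2b*, *hoxb2a* and *hoxb3a* rose, and *hoxa3a* and *hoxb9a* stayed within 2-fold. *hoxa2b*, the second-arch selector, was at 19.2 at 28 hpf and 8.43 at 20 hpf (2.27-fold), *hoxb2a* at 16.7 at 28 hpf and 4.70 at 20 hpf (3.56-fold), and *hoxb3a* at 16.5 at 28 hpf and 6.25 at 20 hpf (2.64-fold). *hoxd4a* was at 19.6 at 28 hpf and 1.58 at 20 hpf (12.4-fold) and *hoxb4a*, with 260 reads at 28 hpf and 5 at 20 hpf, at 3.83 at 28 hpf and 0.0741 at 20 hpf (51.7-fold, interval 21.9 to 161). The 2 genes that fell were *hoxb7a* (1.3 at 28 hpf, 3.74 at 20 hpf, 2.87-fold) and *hoxc3a* (1.69 at 28 hpf, 3.53 at 20 hpf, 2.09-fold). Both were higher in *sox10*:DsRed single-positive cells at 36 hpf, at 19.9 and 6.21, and neither fall exceeded the control range.

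Among the Hox cofactors, a list added after values had been seen, 8 of 13 Meis and Pbx genes passed and all 8 were higher at 28 hpf, 4 of them by 2-fold or more. *meis1a* was at 25.8 at 28 hpf and 6.35 at 20 hpf, *meis2a* at 35.4 at 28 hpf and 9.20 at 20 hpf, *meis2b* at 17.2 at 28 hpf and 5.99 at 20 hpf and *meis1b* at 55.5 at 28 hpf and 21.9 at 20 hpf, which were rises of 4.07-fold for *meis1a*, 3.85-fold for *meis2a*, 2.88-fold for *meis2b* and 2.54-fold for *meis1b*. *pbx4*, at 52.6 at 28 hpf and 31.4 at 20 hpf, was within 2-fold. A count over homeobox genes as a class, also added after values had been seen, gave 236 in the table and 65 passing, of which 35 rose (53.8%, against 6.92% of all genes) and 8 fell (12.3%). Their summed RPKM was 1545 at 28 hpf and 752 at 20 hpf.

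Skeletal genes rose in part. Of 44 genes of cartilage and bone 21 passed, 8 rose and 1 fell, with a median log2 fold change of 0.78. Over all genes, 6.92% rose and 5.78% fell. The rising *ctgfb*, *fgfbp2a*, *col9a2* and *col9a1b* passed at 28 hpf alone, and the falling *hapln1b* at 20 hpf alone, which set their directions. *barx1*, a homeobox gene of jaw cartilage condensations, was at 57.4 at 28 hpf and 4.58 at 20 hpf, a 12.5-fold rise with an interval of 11.2 to 14.1, and at 66.2 to 117 in the controls. *hapln1a*, which links hyaluronan to proteoglycans, was at 112 at 28 hpf and 5.87 at 20 hpf (19.1-fold). The genes of the secreted proteins *ctgfb* (15.5 at 28 hpf, 0.692 at 20 hpf, 22.4-fold) and *fgfbp2a* (4.91 at 28 hpf, 0.119 at 20 hpf, 41.2-fold) rose. In these genes the condensation stage was set apart from the arrival stage by more than the 4 controls differed among themselves.

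The chondrogenic regulators *sox9a*, *sox5* and *sox6* stayed within 2-fold. *sox9a* was at 3.17 at 28 hpf and 2.44 at 20 hpf, *sox5* at 39.3 at 28 hpf and 41.6 at 20 hpf, and *sox6* at 9.87 at 28 hpf and 10.3 at 20 hpf. Of the cartilage collagens, *col2a1a* (18.8 at 28 hpf, 5.14 at 20 hpf, 3.65-fold) and *col9a2* (6.22 at 28 hpf, 1.46 at 20 hpf, 4.26-fold) rose, and *col9a1b* (703 reads at 28 hpf, 18 at 20 hpf) rose 38.9-fold. Each of these 3 was also higher in *sox10*:DsRed single-positive cells at 36 hpf (55.7, 30.3 and 26.2), and *col9a1b* ranged from 0.164 to 4.70 in the controls. *col2a1b* (63.7 at 28 hpf, 30.2 at 20 hpf) rose 2.11-fold, without exceeding the control range. The cartilage collagens *col9a1a*, *col9a3*, *col11a1a* and *col11a1b* stayed within 2-fold. *hapln1b* fell 5.61-fold, to 1.85 at 28 hpf against 10.4 at 20 hpf, opposite to *hapln1a*.

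Matrix genes of mesenchyme were higher at 28 hpf. Of 56 genes 34 passed, 18 rose and 1 fell, with a median log2 fold change of 1.1. Over all genes, 6.92% rose and 5.78% fell. Some rising genes, among them *lum*, *col6a1* and *col12a1b*, passed at 28 hpf alone and so had to be higher there. All 18 rising genes were kept when genes at least 2-fold higher in a single-positive population were left out. *dcn*, the proteoglycan decorin, was at 111 at 28 hpf and 6.65 at 20 hpf (16.6-fold), and *lum*, its relative lumican, at 8.04 at 28 hpf and 1.3 at 20 hpf (6.16-fold) with 24.4 to 67.2 in the controls. *col6a1* had 1390 reads at 28 hpf and 3 at 20 hpf, a ratio of 461 with an interval of 157 to 2238. Among fibrillar collagens, *col1a1b* was at 36.4 at 28 hpf and 4.80 at 20 hpf (7.58-fold), *col1a2* at 86.3 at 28 hpf and 28.1 at 20 hpf (3.07-fold), and *col1a1a* at 88.3 at 28 hpf and 44.4 at 20 hpf, just under 2-fold. The adhesion protein gene *tgfbi* (183 at 28 hpf, 77.1 at 20 hpf, 2.37-fold), the collagen-binding *sparc* (52.7 at 28 hpf, 23 at 20 hpf, 2.29-fold) and the collagen *col12a1b* (4.49 at 28 hpf, 0.322 at 20 hpf, 13.9-fold) rose too.

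Other matrix genes were steady, among them the tenascin *tnc* (53.1 at 28 hpf, 51.7 at 20 hpf) and the fibronectin *fn1a* (13.6 at 28 hpf, 12.4 at 20 hpf). The 1 that fell was the basement-membrane collagen *col15a1b*, at 3.64 at 28 hpf and 15.6 at 20 hpf (4.28-fold). Of the 20 rising genes with the largest change that lie outside the lists, *tnw*, tenascin W, was at 74.1 at 28 hpf and 2.84 at 20 hpf (26.1-fold) with 117 to 350 in the controls, and the claudin *cldn11a* at 31.3 at 28 hpf and 0.391 at 20 hpf (80.1-fold). Both were also expressed in *fli1a*:EGFP single-positive cells at 36 hpf, *tnw* at 205 and *cldn11a* at 25.9.

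**Figure D4:**
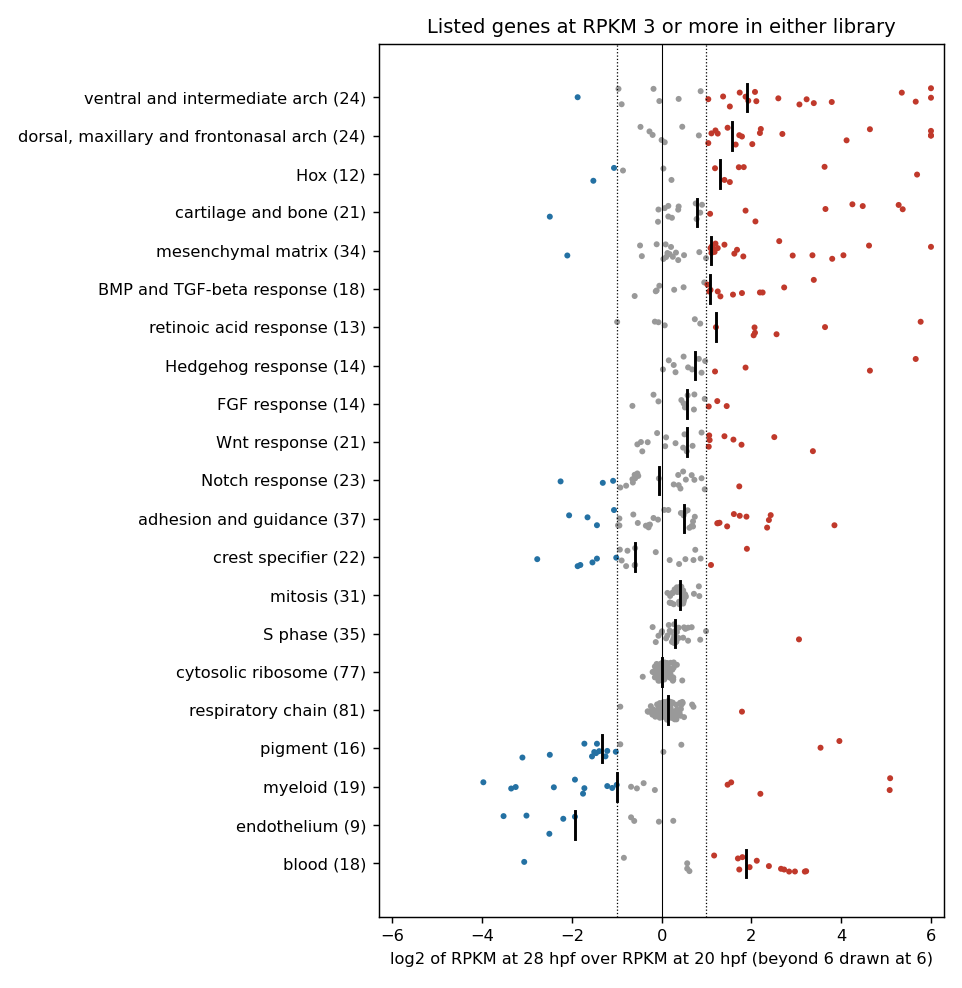
Log2 of RPKM at 28 hpf over RPKM at 20 hpf for genes of 21 lists that passed the RPKM minimum (number in brackets); red points rose and blue points fell by 2-fold or more, black bars are medians, and values beyond 6 are drawn at 6. Medians of the arch patterning, Hox, matrix and retinoic acid lists lie at or above 1, those of replication, mitosis, ribosome and respiration lie near 0, and those of pigment, myeloid and endothelial genes lie at or below -1.

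Readouts of the signals that pattern the arches were then compared. For BMP and TGF-beta, 18 of 31 genes passed, 11 rose and 0 fell (median log2 fold change 1.07, with 0 to 3 apart between control pairs). Over all genes, 6.92% rose and 5.78% fell. The rising *nog1*, *fsta*, *bmp4*, *id2b* and *smad9* passed at 28 hpf alone and so had to be higher there. The rising genes were mostly antagonists and feedback inhibitors, and of all the rises only that of *smad7* did not exceed the control range. The secreted antagonists *nog2* (36.1 at 28 hpf, 7.93 at 20 hpf, 4.55-fold), *nog1* (7.73 at 28 hpf, 1.62 at 20 hpf, 4.76-fold) and *fsta* (9.25 at 28 hpf, 1.40 at 20 hpf, 6.63-fold) rose, and the intracellular inhibitors *smad6a* (22.6 at 28 hpf, 6.56 at 20 hpf, 3.45-fold) and *smad7* (23.1 at 28 hpf, 11 at 20 hpf, 2.09-fold) and the decoy receptor *bambia* (20.3 at 28 hpf, 6.75 at 20 hpf, 3.01-fold) rose. The direct targets *id1* (486 at 28 hpf, 523 at 20 hpf) and *id3* (104 at 28 hpf, 114 at 20 hpf) did not pass 2-fold, whereas *id2b* (4.9 at 28 hpf, 2.41 at 20 hpf) rose 2.03-fold.

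For retinoic acid, 13 of 21 genes passed, 7 rose and 0 fell, with a median log2 fold change of 1.21. Over all genes, 6.92% rose and 5.78% fell. The rising *cyp26a1*, *dhrs3a* and *dhrs3b* passed at 28 hpf alone and so had to be higher there. *cyp26a1*, which degrades retinoic acid and is induced by it, was at 11.5 at 28 hpf (1097 reads) and 0.211 at 20 hpf (20 reads), 54.6-fold higher with an interval of 35.2 to 89.7. It was lower again in each control of 36 hpf, at 1.53 to 4.63. The retinaldehyde reductases *dhrs3b* (11 at 28 hpf, 0.882 at 20 hpf, 12.5-fold) and *dhrs3a* (5.50 at 28 hpf, 0.931 at 20 hpf, 5.91-fold) rose, the binding-protein genes *rbp5* (23 at 28 hpf, 5.42 at 20 hpf, 4.24-fold), *crabp2a* (27.8 at 28 hpf, 6.63 at 20 hpf, 4.2-fold) and *crabp2b* (21.2 at 28 hpf, 5.10 at 20 hpf, 4.15-fold) rose, and *cyp26b1* (9.25 at 28 hpf, 4.01 at 20 hpf) rose 2.31-fold. The receptor *rxraa* was lower, at 7.51 at 28 hpf and 14.9 at 20 hpf, within 2-fold.

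Wnt, Hedgehog and FGF readouts moved less. Over all genes, 6.92% rose and 5.78% fell. The rising Wnt genes *notum1a*, *fzd9b* and *nkd2a* passed at 28 hpf alone and so had to be higher there. The same held for the rising Hedgehog genes *foxf2a* and *foxl1* and for *ptch1*. For Wnt, 21 of 32 genes passed, 8 rose and 0 fell (median 0.56), with the feedback inhibitors *notum1a* at 5.89 at 28 hpf and 0.569 at 20 hpf (10.4-fold) and *axin2* at 25 at 28 hpf and 12.1 at 20 hpf (2.07-fold), the secreted *sfrp1a* at 10.6 at 28 hpf and 3.10 at 20 hpf (3.42-fold), and the receptor *fzd9b* at 5.40 at 28 hpf and 0.947 at 20 hpf (5.70-fold). For Hedgehog, 14 of 17 passed, all 14 were higher at 28 hpf and 4 rose: *foxf2a*, *foxl1* and *foxf1* above, and the co-receptor *boc* (46.0 at 28 hpf, 20.1 at 20 hpf, 2.29-fold). The classical targets *ptch1* (5.12 at 28 hpf, 2.61 at 20 hpf) and *gli1* (5.26 at 28 hpf, 3.74 at 20 hpf) stayed under 2-fold. For FGF, 14 of 18 passed and 3 rose, *etv5a* (48.6 at 28 hpf, 17.8 at 20 hpf, 2.73-fold), *fgfr4* (24.3 at 28 hpf, 10.3 at 20 hpf, 2.36-fold) and *fgfrl1a* (10.1 at 28 hpf, 4.90 at 20 hpf, 2.06-fold), while the feedback genes *dusp6* (67.5 at 28 hpf, 76.2 at 20 hpf) and *spry4* (56.4 at 28 hpf, 59.2 at 20 hpf) were nearly level.

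The Notch list, which holds receptors and ligands as well as targets, had no common direction as a whole. Its summed RPKM was 1266 at 28 hpf and 1603 at 20 hpf. Of 32 genes 23 passed, 1 rose and 3 fell, beside 6.92% rising and 5.78% falling over all genes. The median log2 fold change was -0.06. The 1 that rose was *jag1b*. The 3 that fell were the targets *her12* (14.6 at 28 hpf, 69.3 at 20 hpf, 4.76-fold), *her4.1* (23.8 at 28 hpf, 59.2 at 20 hpf, 2.48-fold) and 1 of the 2 entries of *her4.2* (45.4 at 28 hpf, 96.1 at 20 hpf, 2.12-fold), whose other entry was at 31.5 at 28 hpf and 26.1 at 20 hpf. None of the 3 falls exceeded the control range. Reads of the *her4* copies may have been divided between entries, so their single values are uncertain. The arch targets *hey1* (112 at 28 hpf, 86.7 at 20 hpf) and *her6* (309 at 28 hpf, 195 at 20 hpf) were higher at 28 hpf within 2-fold, as were *hey2* and *hes6*. Lower within 2-fold were *her2* (87.2 at 28 hpf, 165 at 20 hpf), *nrarpa* (73.2 at 28 hpf, 127 at 20 hpf) and *her9* (266 at 28 hpf, 401 at 20 hpf). The same held for *nrarpb*, *her15.1* and *her15.2*, and none of these lower values exceeded the control range. The receptors *notch1a*, *notch2* and *notch3* were higher within 2-fold.

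Early crest specifiers changed in both directions, with more falls than rises. Of 25 genes 22 passed, 6 fell and 2 rose, with a median log2 fold change of -0.60, and 3 of the falls exceeded the control range. Over all genes, 6.92% rose and 5.78% fell. The falling *pax3a*, *tfap2e* and *erbb3b* passed at 20 hpf alone and so had to be lower at 28 hpf. The paired-box genes of premigratory crest and pigment progenitors *pax7b* (6.55 at 28 hpf, 44.7 at 20 hpf, 6.83-fold), *pax7a* (3.07 at 28 hpf, 8.91 at 20 hpf, 2.9-fold) and *pax3a* (1.06 at 28 hpf, 3.85 at 20 hpf, 3.65-fold) fell. *sox10* itself, whose promoter drives the sort reporter, was at 25.9 at 28 hpf and 70.5 at 20 hpf, a 2.72-fold fall, and at 3.12 to 16.4 in the controls. *tfap2e* (2.98 at 28 hpf, 10.4 at 20 hpf, 3.51-fold) and *erbb3b* (1.78 at 28 hpf, 3.58 at 20 hpf, 2.01-fold) fell.

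These falls ran beside those of other lineages. *sox10*, *pax7b* and *erbb3b* were at 161, 23.4 and 12.7 in *sox10*:DsRed single-positive cells at 36 hpf, and without genes at least 2-fold higher in a single-positive population 2 crest specifiers fell in place of 6. How far such cells account for the falls was not tested. *foxd3*, a specifier of early crest, was within 2-fold at 16.1 at 28 hpf and 24.2 at 20 hpf, as were *tfap2a* at 43.6 at 28 hpf and 65.6 at 20 hpf, *twist1a* at 120 at 28 hpf and 82.9 at 20 hpf and *snai1a* at 64.8 at 28 hpf and 38.6 at 20 hpf. The mesenchymal factors *twist1b* (17.9 at 28 hpf, 4.82 at 20 hpf, 3.72-fold) and *snai2* (51.0 at 28 hpf, 23.8 at 20 hpf, 2.15-fold) rose. *fli1a*, which drives the other reporter, was at 75.3 at 28 hpf and 62.7 at 20 hpf.

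Adhesion and guidance genes included signals between crest and its surroundings. Of 55 genes 37 passed, 11 rose (29.7%, beside 6.92% of all genes) and 4 fell (10.8%, beside 5.78%), with 1 to 7 apart between control pairs. The rising *sema3ab* and *cxcr4a* passed at 28 hpf alone, and the falling *cdh1* and *itga9* at 20 hpf alone, which set their directions. The chemokine *cxcl12a* was at 16.5 at 28 hpf and 5.40 at 20 hpf (3.05-fold) and its scavenger receptor *ackr3b* at 16.3 at 28 hpf and 5.95 at 20 hpf (2.74-fold), with 47.2 to 86.3 in the controls. The signaling receptor *cxcr4b*, known in migrating cells, fell 4.17-fold (7.13 at 28 hpf, 29.8 at 20 hpf), and at 36 hpf it was at 11 in the *fli1a*:EGFP sort and 1.76 in the wild-type double-positive library. Its duplicate *cxcr4a* rose 3.7-fold (6.24 at 28 hpf, 1.69 at 20 hpf). The semaphorin *sema3ab* was at 4.56 at 28 hpf and 0.316 at 20 hpf (14.4-fold) and the ephrin *efnb1* at 20.7 at 28 hpf and 8.43 at 20 hpf (2.45-fold). *cdh1*, E-cadherin, fell 3.13-fold (2.09 at 28 hpf, 6.56 at 20 hpf), and the integrins *itga4* and *itga9* fell, *itga4* to 4.96 at 28 hpf against 13.4 at 20 hpf (2.71-fold) and *itga9* to 1.46 at 28 hpf against 3.05 at 20 hpf (2.08-fold).

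Replication and division genes were slightly higher at 28 hpf without passing 2-fold. All 31 mitosis genes passed and all 31 were higher at 28 hpf, with 0 past 2-fold and a median log2 fold change of 0.42; *plk1* was at 92.7 at 28 hpf and 73.4 at 20 hpf, and *top2a*, which untangles sister chromatids, at 43.3 at 28 hpf and 31.8 at 20 hpf. Between control pairs the median of the same genes ran from -0.93 to -0.15, so shifts of this size also occurred within a stage. Of 36 S phase genes 35 passed, 32 were higher, and 1 rose, an entry of *rrm2* (45.4 at 28 hpf, 5.45 at 20 hpf, 8.33-fold), whose other entry was at 290 at 28 hpf and 234 at 20 hpf. *pcna* was at 557 at 28 hpf and 428 at 20 hpf. Of 36 cell cycle regulators 26 passed, and the inhibitors *cdkn1cb* (11.1 at 28 hpf, 5.31 at 20 hpf, 2.09-fold) and *cdkn1a* (3.04 at 28 hpf, 7.66 at 20 hpf, 2.52-fold) were the 1 that rose and the 1 that fell.

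Housekeeping sets were nearly level. None of 77 cytosolic ribosomal protein entries passed 2-fold (median log2 fold change 0.02), and their summed RPKM was 31810 at 28 hpf and 30735 at 20 hpf. Of 81 of 94 respiratory chain genes that passed, 1 rose, an entry of *cox6b1* (7.12 at 28 hpf, 2.06 at 20 hpf, 3.45-fold), and the median was 0.14. Of 16 glycolysis genes that passed 1 rose, *eno1a* (13 at 28 hpf, 3.31 at 20 hpf, 3.94-fold), and none of 13 developmental timing genes passed 2-fold.

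Genes of cell types at the borders of the gate changed in both directions. Of leukocyte genes, several of neutrophils rose. *lyz*, lysozyme, was at 645 at 28 hpf and 18.9 at 20 hpf, a 34.0-fold rise, and at 10.2 to 81.8 in the controls and 237 in *fli1a*:EGFP single-positive cells. *mpx*, myeloperoxidase, was at 38.3 at 28 hpf and 1.13 at 20 hpf (33.8-fold) and the metalloprotease *npsn* at 66.7 at 28 hpf and 1.02 at 20 hpf (65.5-fold). *cpa5*, a carboxypeptidase known in granulocytes and mast cells, had 1743 reads at 28 hpf and 0 at 20 hpf, at least 578-fold higher. All 4 genes were higher at 28 hpf than in any of the other double-positive libraries set beside it.

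Several macrophage genes fell over the same interval. *mpeg1.1*, a pore-forming protein of macrophages, was at 3.84 at 28 hpf and 36.6 at 20 hpf, a 9.53-fold fall with an interval of 8.70 to 10.5, and at 0.191 to 0.369 in the controls. The chemokine receptor *cxcr3.2* (2.72 at 28 hpf, 27.7 at 20 hpf, 10.2-fold), the regulators *spi1b* (13.6 at 28 hpf, 51.8 at 20 hpf, 3.81-fold) and *irf8* (1.48 at 28 hpf, 7.82 at 20 hpf, 5.28-fold) and the actin bundler *lcp1* (33.3 at 28 hpf, 109 at 20 hpf, 3.28-fold) fell, whereas *mfap4* was at 57.3 at 28 hpf and 84.2 at 20 hpf. Of the falls named here, those of *spi1b* and *lcp1* did not exceed the control range. Over the myeloid list, 19 of 23 genes passed, 5 rose and 10 fell, beside 6.92% rising and 5.78% falling over all genes. The summed RPKM of the list was 1031 at 28 hpf and 697 at 20 hpf, with 83.2 to 182 in the controls and 443 in *fli1a*:EGFP single-positive cells, and *lyz* alone made up most of the 28 hpf sum. Beside *lyz* and *mpx*, the list's rises were *nccrp1* (23.7 at 28 hpf, 5.15 at 20 hpf), *il1b* (18 at 28 hpf, 6.13 at 20 hpf) and *LAPTM5* (9.68 at 28 hpf, 3.49 at 20 hpf). *lect2l* was lower within 2-fold (13.8 at 28 hpf, 18.3 at 20 hpf). The rising *mpx*, *npsn* and *cpa5* passed at 28 hpf alone, and the falling *cxcr3.2* and *irf8* at 20 hpf alone, which set their directions.

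Genes of the phagocyte oxidase and lysosome, a list added after values had been seen, fell in most cases. Of 19 genes 15 passed and 14 fell, beside 5.78% falling over all genes, with a median log2 fold change of -2.56. Some of the falling genes, among them *ctssb.2*, *ly75* and *card9*, passed at 20 hpf alone and so had to be lower at 28 hpf. The oxidase subunits *ncf1* (17.2 at 28 hpf, 99.3 at 20 hpf, 5.79-fold) and *cybb* (6.11 at 28 hpf, 36.1 at 20 hpf, 5.9-fold), the collagenase *mmp13a* (9.94 at 28 hpf, 69.4 at 20 hpf, 6.99-fold) and the lysosomal *CD68* (11.9 at 28 hpf, 65.4 at 20 hpf, 5.51-fold) fell. The summed RPKM of the list was 116 at 28 hpf and 494 at 20 hpf, and 11 to 23.8 in the controls. The falls of *cybb* and *mmp13a* did not exceed the control range, nor did those of *ctssb.1*, *ctssb.2*, *rac2* and *cyba*. The other falls of the list did. No myeloid gene was left among the rising or falling genes once those at least 2-fold higher in a single-positive population were left out. That rule divides by the wild-type 36 hpf double-positive value, so low single-positive values could meet it. At 36 hpf *mpeg1.1* was at 0.847 in *fli1a*:EGFP cells and 0.339 in wild-type double-positive cells. *cxcr3.2* was at 1.71 and 0.178 in the same 2 populations, and *ncf1* at 4.65 and 0.624.

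The 20 named genes with the largest falls included *bpifcl* (0.504 at 28 hpf, 14.6 at 20 hpf, 28.9-fold), *rnaset2l* (0.594 at 28 hpf, 13.9 at 20 hpf, 23.4-fold), the cathepsin *ctssb.2* (0.722 at 28 hpf, 11.4 at 20 hpf, 15.7-fold), the lectin receptor *ly75* (0.568 at 28 hpf, 8.69 at 20 hpf, 15.3-fold), the adaptor *card9* (2.62 at 28 hpf, 22.5 at 20 hpf, 8.6-fold), the chemokine receptor *ccr12b.2* (2.37 at 28 hpf, 20.5 at 20 hpf, 8.65-fold) and the ETS gene *spi1a* (4.67 at 28 hpf, 38.9 at 20 hpf, 8.33-fold). *hpdb*, an enzyme of tyrosine breakdown, had 7 reads at 28 hpf and 277 at 20 hpf, a 39.8-fold fall with an interval of 19.0 to 99.9, and was at 10.5 in *sox10*:DsRed single-positive cells.

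**Figure D5:**
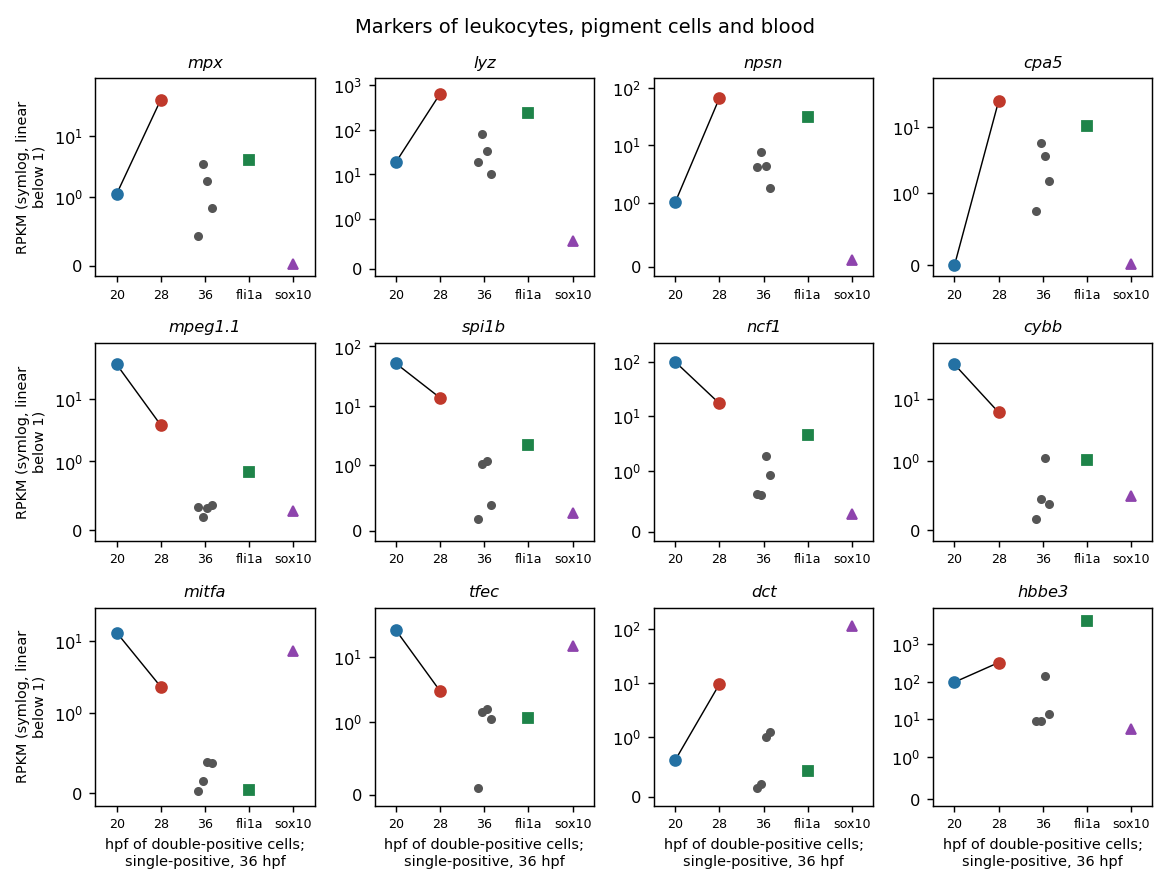
RPKM (linear below 1, logarithmic above) of 12 markers of leukocytes, pigment cells and blood in double-positive cells at 20, 28 and 36 hpf (4 controls, grey) and in *fli1a*:EGFP (green square) and *sox10*:DsRed (purple triangle) single-positive cells at 36 hpf. The neutrophil genes of the top row peak at 28 hpf, and the macrophage genes of the middle row are highest at 20 hpf.

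Most pigment cell genes that passed the RPKM minimum fell, and 2 late melanin enzymes rose. Of 24 genes 16 passed, 11 fell and 2 rose (median log2 fold change -1.32, with 3 to 11 apart between control pairs). Over all genes, 6.92% rose and 5.78% fell. Both rising genes, *dct* and *tyrp1b*, passed at 28 hpf alone, and the falling *mitfa*, *tfec*, *tyr* and *csf1ra* at 20 hpf alone. The RPKM minimum thus set the directions of these genes. Of the 11 falls 4 exceeded the control range (*rab32a*, *gpr143*, *csf1ra* and *bace2*), as did both rises. The summed RPKM was 323 at 28 hpf and 573 at 20 hpf, against 22.2 to 79.7 in the controls and 4493 in *sox10*:DsRed single-positive cells. The regulators *mitfa* (2.32 at 28 hpf, 13.1 at 20 hpf, 5.62-fold) and *tfec* (2.98 at 28 hpf, 25.5 at 20 hpf, 8.58-fold) fell, and *tyr*, tyrosinase, fell 2.75-fold (1.92 at 28 hpf, 5.29 at 20 hpf). *dct* (9.44 at 28 hpf, 0.607 at 20 hpf, 15.5-fold) and *tyrp1b* (23 at 28 hpf, 1.98 at 20 hpf, 11.6-fold), which act after tyrosinase in melanin synthesis, rose. All 13 were at least 2-fold higher in *sox10*:DsRed single-positive cells than in wild-type double-positive cells at 36 hpf.

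Genes of xanthophores and iridophores were listed after values had been seen, and several are shared with the pigment and crest lists. Of 12 genes 10 passed and 8 fell (median -1.40), beside 5.78% falling over all genes. Beyond the control range were 4 of the falls (*pax7b*, *slc2a15b*, *pax7a* and *csf1ra*). *slc2a15b* was at 7.86 at 28 hpf and 32.3 at 20 hpf. *akr1b1* was at 26.7 at 28 hpf and 66.7 at 20 hpf, a fall that did not exceed the control range. *gch2*, of pteridine synthesis, was within 2-fold at 181 at 28 hpf and 343 at 20 hpf and at 3285 in the *sox10*:DsRed sort. The iridophore gene *pnp4a* was higher at 28 hpf within 2-fold, at 28.2 at 28 hpf and 20.8 at 20 hpf. Of the 20 rising genes with the largest change, *defbl1* (21.1 at 28 hpf, 0.366 at 20 hpf, 57.7-fold), *apoda.1* (19.2 at 28 hpf, 0.557 at 20 hpf, 34.4-fold) and *rbp4l* (8.21 at 28 hpf, 0.0985 at 20 hpf, 83.3-fold) were at 296, 235 and 317 in the *sox10*:DsRed sort at 36 hpf.

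Of 28 endothelial genes 9 passed and 5 fell: *clec14a* (0.354 at 28 hpf, 4.07 at 20 hpf, 11.5-fold), *erg* (0.538 at 28 hpf, 4.35 at 20 hpf, 8.08-fold), *fli1b* (2.24 at 28 hpf, 12.6 at 20 hpf, 5.64-fold), *tal1* (2 at 28 hpf, 9.13 at 20 hpf, 4.57-fold) and *etv2* (0.922 at 28 hpf, 3.51 at 20 hpf, 3.81-fold). All 5 passed the RPKM minimum at 20 hpf alone and so had to be lower at 28 hpf, and of the 3 that passed at both stages, *lmo2*, *dll4* and *fli1a*, 0 fell. The summed RPKM of the list, of which *fli1a* made up most at 28 hpf, was 100 at 28 hpf and 131 at 20 hpf, 81.9 to 101 in the controls and 550 in *fli1a*:EGFP single-positive cells. Of 22 blood genes 18 passed, 13 rose and 1 fell, *spi1a*. The endothelial and blood counts stand beside 6.92% rising and 5.78% falling over all genes. The summed RPKM of the blood genes was 3969 at 28 hpf and 800 at 20 hpf, 150 to 1519 in the controls and 64210 in *fli1a*:EGFP single-positive cells. The erythroid genes *slc4a1a* (29.3 at 28 hpf, 4.65 at 20 hpf, 6.3-fold) and *cahz* (38.9 at 28 hpf, 4.97 at 20 hpf, 7.82-fold) rose, whereas *gata1a* was at 4.07 at 28 hpf and 2.74 at 20 hpf. Hemoglobin reads may have been divided between near-identical copies, and single hemoglobin values are uncertain. No blood or endothelial gene remained among the rising or falling genes when those at least 2-fold higher in a single-positive population were left out. Of the 13 blood rises, 1 exceeded the control range, an entry of *hbae1*. The part of leukocytes, pigment cells, endothelium and blood in the rises and falls of their genes was not tested.

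Markers of further cell types gave small counts. Over all genes, 6.92% rose and 5.78% fell. The muscle genes that rose all passed at 28 hpf alone and so had to be higher there. The same held for some rising genes of ear, epidermis, neurons and mesoderm, among them *stm*, *hand2*, *cxcr4a* and *gata6*. Some falling genes, among them *cdh1* and *erbb3b*, passed at 20 hpf alone and so had to be lower at 28 hpf. Of 35 muscle genes 7 passed, and 5 rose and 1 fell. Among the rises, only that of *ckma*, muscle creatine kinase, exceeded the control range. *ckma* was at 6.59 at 28 hpf and 0.537 at 20 hpf. The summed RPKM of the muscle list was 56.7 at 28 hpf and 28.9 at 20 hpf and ran up to 1001 in the wild-type 36 hpf library. Of 30 ear genes 12 passed and 6 rose, 3 of which (*dlx3b*, *dlx4b* and *sparc*) were arch or matrix genes as well; *stm*, an otolith gene, was at 3.25 at 28 hpf and 1.2 at 20 hpf and at 152 in *sox10*:DsRed single-positive cells. Of 35 epidermal genes 12 passed, 3 rose and 2 fell, with the keratin *krt4* at 48.0 at 28 hpf and 8.04 at 20 hpf. Of 42 neuron and glia genes 12 passed, 3 rose and 2 fell. Among the rising ones, *fabp7a* was at 38.3 at 28 hpf and 3.35 at 20 hpf, and *dlx5a* was an arch gene as well. Of 28 mesoderm genes 6 passed and all 6 rose, and *hand2*, *foxc1a* (27.7 at 28 hpf, 13.2 at 20 hpf, 2.09-fold), *foxc1b* (32.0 at 28 hpf, 14.3 at 20 hpf, 2.23-fold), *cxcr4a* and *gata6* (4.6 at 28 hpf, 0.668 at 20 hpf, 6.9-fold) were among them. *hand2* was an arch gene as well. *hand2*, *foxc1a* and *foxc1b* were higher in wild-type 36 hpf double-positive cells (73.0, 44.2 and 33.1) than in either single-positive population. Of 24 endoderm and notochord genes 1 passed and rose, the ligand *fgf3* (25.4 at 28 hpf, 7.09 at 20 hpf, 3.58-fold). Its rise did not exceed the control range, as the controls of 36 hpf ran from 2.04 to 22.8.

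The rising and falling genes were then followed into the 36 hpf controls. All 4 controls were above the 20 hpf value for 481 of the 594 rising genes (81.0%), and below it for 483 of the 496 falling genes (97.4%). The genes had been chosen by the same 20 hpf values, which sets these shares in part, and no stability is read from them. A further 2-fold above 28 hpf in every control was reached by 13 rising genes. They included the heat shock genes *hsp70.3* (21.5 at 28 hpf and 8.74 at 20 hpf, 52.5 to 246 in the controls) and *hsp70.2* (11.3 at 28 hpf and 3.37 at 20 hpf, 36.9 to 170 in the controls), both highest in the *jag1b* wild-type library and not in the 2 heat-shocked controls. Also among them were *pou3f3b*, *lhx6*, *lum*, *col6a1*, *ackr3b* and *sema3bl* (10.8 at 28 hpf and 2.83 at 20 hpf, 27.2 to 55.0 in the controls), named after their values were seen.

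Conversely, 65 rising genes (10.9%) were 2-fold or more lower in every control than at 28 hpf, a share likewise set in part by the choice of genes on their 28 hpf values. Of these 65, 17 were not at least 2-fold higher in a single-positive population, including *cyp26a1*. *thy1*, a cell-surface glycoprotein, was one of them, at 11 at 28 hpf and 2.80 at 20 hpf and at 1.6 to 3.75 in the controls, as was *sms*, spermine synthase, at 47.0 at 28 hpf and 18.6 at 20 hpf and at 15.4 to 18.0. *myl9b*, a myosin light chain of contractile cells, was the 1 falling gene for which all 4 controls exceeded the 20 hpf value, at 6.92 at 28 hpf and 15.3 at 20 hpf, against 28.1 to 38.1 in the controls. These genes were named after their values were seen.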

How the data were processed

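RNA of sorted cells was made into cDNA with the SMARTer V3 kit and sequenced on HiSeq and NextSeq machines; which library ran on which is not given in the sources used here. The authors used TopHat 2 for alignment to GRCz10, quantified Ensembl release 80 genes with Partek E/M, and deposited RPKM values for 13 libraries. RPKM was used without rescaling. Values under 0.01 were set to 0.01 in ratios. Whole reads were recovered for 1649 of the 8583 genes (19.2%) with a tolerance of 0.06 of a read, and 95% intervals are exact Clopper-Pearson. Depth over all libraries ran from 0.687 to 1.23.

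Genes named are the 20 rising and 20 falling genes with the largest log2 ratio of RPKM + 0.5 (clone-based names left out), genes of 33 lists and genes the study names. Members and lists were chosen with earlier results of these data known, and 7 lists were added after values were seen. Ribosomal and homeobox genes were taken by symbol pattern. Alternatives were other RPKM minimums, folds and pseudocounts, rescaling by median ratios, and leaving out entries that share a symbol. Calculations used Python 3.11.15, numpy 2.4.6, pandas 2.3.3 and scipy 1.17.1, with figures by matplotlib 3.10.9, and were tested on simulated data. Sequences and coordinates are not given here. 1 gene is not reported here.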

Additional observations from a re-analysis of the deposited data

How the results depend on the processing

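Of 594 rising and 496 falling genes, a minimum RPKM of 1 gave 1152 and 842, no minimum 4310 and 3406, and a minimum of 3 in both libraries 233 and 236. A fold of 1.5 gave 1356 and 1108, and a fold of 3 gave 290 and 227. Without genes at least 2-fold higher in a single-positive population, 154 fell, and with folds beyond the control range 301 fell; both settings were chosen after seeing the data, and both kept the rising count within 1.5 times. A minimum of 5, pseudocounts of 0.1 and 1, rescaling by median ratios and leaving out shared symbols stayed within 1.5 times, but rescaling turned the balance to more falls than rises (483 rising and 573 falling). Of the listed genes 158 rose and 55 fell; 102 fell at 1.5-fold, and 8 without genes higher in single-positive cells. At 1.5-fold, 2169 genes in place of 885 were apart between the wild-type 36 hpf and *jag1b* wild-type libraries, and 998 in place of 192 between the heat-shocked controls. At 3-fold, 0% of falling genes were arch-enriched in place of 0.605%. Of 236 named genes 0 changed sign, and 212 were still past 2-fold with a pseudocount of 1 and 221 after rescaling. No paired analysis was possible because each stage has 1 library. Machine, dissociation and stage cannot be told apart.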

Other observations

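The gene groups here were listed after their values had been seen, except where said, and are given as values. Genes of the vacuolar proton pump were lower at 28 hpf in many cases. Of 26 V-ATPase genes 21 passed an RPKM of 3 in either library, and 11 fell and 0 rose. These counts stand beside 5.78% falling and 6.92% rising over all genes. All 11 falls exceeded the range of the 4 controls at 36 hpf, and the median log2 fold change was -1.02. Between pairs of controls, 2 to 4 of the V-ATPase genes were 2-fold apart. The stalk subunit *atp6v1g1* was at 26.9 at 28 hpf and 88.2 at 20 hpf, *atp6v0ca*, of the membrane ring, at 25 at 28 hpf and 68.5 at 20 hpf, *atp6v1e1b* at 17.9 at 28 hpf and 45.9 at 20 hpf, and the accessory subunit *atp6ap2* at 19.2 at 28 hpf and 42.9 at 20 hpf. The summed RPKM of the V-ATPase list was 268 at 28 hpf and 582 at 20 hpf, and 647 in *sox10*:DsRed single-positive cells at 36 hpf. The V-ATPase falls ran beside those of phagocyte and pigment genes, and the part of such cells in them was not tested.

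Genes of ribosome assembly were lower at 28 hpf, while those of ribosomal proteins were level. Of 54 ribosome biogenesis genes 52 passed and 50 were lower at 28 hpf, with a median log2 fold change of -0.64, beside -0.29 to 0.20 between pairs of controls. Only *npm1a* (278 at 28 hpf, 562 at 20 hpf), *tsr1* (16.0 at 28 hpf, 34.7 at 20 hpf) and *aatf* (7.42 at 28 hpf, 14.9 at 20 hpf) passed 2-fold. The nucleolar genes *ncl* (355 at 28 hpf, 563 at 20 hpf), *fbl* (157 at 28 hpf, 256 at 20 hpf) and *dkc1* (115 at 28 hpf, 207 at 20 hpf) were lower within 2-fold, and the summed RPKM was 2174 at 28 hpf and 3544 at 20 hpf.

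Stress and immediate early genes, whose lists were fixed with the others, are given as values. Of 35 immediate early genes that passed, 3 rose (*klf2a*, *myca*, *dusp2*; 8.57%) and 4 fell (*egr3*, *nr4a1*, *nr4a3*, *dusp5*; 11.4%), beside 6.92% rising and 5.78% falling over all genes, and 0 to 12 were apart between control pairs. *egr3* was at 2.91 at 28 hpf and 13.1 at 20 hpf, and *nr4a1* at 13.2 at 28 hpf and 46.9 at 20 hpf. Of 21 heat shock genes that passed, 4 rose, among them *hsp70l* at 4.25 at 28 hpf and 0.848 at 20 hpf. None of the 4 rises exceeded the control range. The small heat shock gene *hspb8* fell, at 0.654 at 28 hpf and 5.75 at 20 hpf. *hsp70l* passed at 28 hpf alone and *hspb8* at 20 hpf alone, which set their directions. The constitutive *hspa8* was at 2147 at 28 hpf and 2272 at 20 hpf. Of 28 genes of other stress responses that passed, 4 rose and 5 fell, the falls including the oxidative stress genes *sqstm1* (4.55 at 28 hpf, 15.8 at 20 hpf) and *hmox1a* (4.71 at 28 hpf, 15.5 at 20 hpf). Reads of *hsp70* copies may have been divided between entries.

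Of 45 collagen genes 21 passed, 12 rose and 1 fell, with a summed RPKM of 434 at 28 hpf and 204 at 20 hpf. Over all genes, 6.92% rose and 5.78% fell. Some rising collagen genes, among them *col6a1*, *col12a1b*, *col9a2* and *col9a1b*, passed at 28 hpf alone and so had to be higher there. Several arch-enriched rising genes lie outside the lists. *hgfa*, a growth factor for muscle precursors, was at 5.78 at 28 hpf and 0.374 at 20 hpf, the angiogenic ligand *vegfaa* at 8.33 at 28 hpf and 1.47 at 20 hpf, the ligand *angpt1* at 7.56 at 28 hpf and 1.46 at 20 hpf, the BMP receptor *bmpr1ba* at 15.7 at 28 hpf and 2.29 at 20 hpf, and the guidance ligand *slit3* at 7.39 at 28 hpf and 1.45 at 20 hpf. Among falling genes that were not higher in single-positive cells, the adhesion receptor *prtga*, protogenin, was at 11.4 at 28 hpf and 29.9 at 20 hpf and at 1.36 to 3.69 in the controls, and glutathione reductase *gsr* was at 9.69 at 28 hpf and 33.4 at 20 hpf and at 5.22 to 6.35.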
